A study of Mus musculus with 12 samples.

Results

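Il2ra encodes CD25, a chain of the receptor for interleukin-2, and 48 of the 689 constructs of a pooled CRISPR library were directed against it without also being directed against Cd28. The 48 were taken by their labelled target set. They targeted Il2ra alone or together with 1 to 3 of Tnfrsf4, Tnfrsf9 and Tnfrsf18, which gives 8 combinations of 6 constructs each. Every construct carried 4 sgRNAs in tandem, and positions without a target held a non-targeting spacer. The library, in a lentivirus, was brought into stimulated CD8+ T cells (strain C57BL/6), which were given intravenously to tumour-bearing mice on day 12 after inoculation. Of the transduced cells 5 to 10% were marked, and 10000000 cells were given per mouse. The tested cells were tumour-infiltrating lymphocytes (TIL), sorted as CD8+mKate2+ cells on day 7 after transfer, with 3 to 4 mice pooled per replicate. From each tumour 20000 to 40000 cells were sorted, and 50 human Raji cells per T cell were added as carrier for DNA extraction. The TIL cells were set against the starting reference (SR), a frozen portion of 2000000 to 3000000 of the same transduced cells. All groups therefore carried the library, in which co-stimulatory targets were a biological control beside checkpoint targets and 84 non-targeting constructs were the negative control. Guide activity on the targeted genes is not measured by these read-outs.

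CD25 joins the beta and common gamma chains to form the high-affinity interleukin-2 receptor, and activated CD8+ T cells display it after stimulation. Signals through this receptor drive T cell division, and they also shape the balance between effector and memory fates. Tnfrsf4 (OX40), Tnfrsf9 (CD137) and Tnfrsf18 (GITR) encode co-stimulatory receptors of the TNF receptor superfamily, which activated T cells use for survival and expansion. Cd28 encodes the main co-stimulatory receptor of naive T cells.

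The 48 constructs drew on 10 spacers against Il2ra (gene ID 16184), each 20 bases long. They are shown 5′ to 3′ because every result below is read per construct, and constructs that share a spacer share a guide. Capitals mark a stretch of 15 bases that Il2ra-A and Il2ra-C share on opposite strands, so that these guides address overlapping sequence.
Il2ra-A: aacccCAACATCAGCAAGCG
Il2ra-B: acctgtggtggttatggggc
Il2ra-C: agccaCGCTTGCTGATGTTG
Il2ra-D: atcttgcagatgctaatagc
Il2ra-E: gagaggtttccgaagactaa
Il2ra-F: gtgtctgtatgacccacccg
Il2ra-G: gttcactacgagtgtattcc
Il2ra-H: gttgccaggtgagcccgctc
Il2ra-I: taaccatagtacccagttgt
Il2ra-J: tggcattggggacctcgggt
Use of the spacers was uneven, with Il2ra-J in 9 of the 48 constructs, Il2ra-F in 7, Il2ra-A and Il2ra-C in 6 each, Il2ra-G and Il2ra-I in 5 each, Il2ra-D, Il2ra-E and Il2ra-H in 3 each and Il2ra-B in 1. The Il2ra spacer stood at position 1 of the cassette in 22 constructs, at position 2 in 16, at position 3 in 7 and at position 4 in 3. The exon or intron in which each spacer lies was not analysed here.

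Abundance was read over 2 regions of the cassette, region 1 with the spacers at positions 1 and 2 and region 2 with those at positions 2 and 3. The labels name 3 SR and 3 TIL replicates, read over both regions in 12 libraries. The deposited values are scaled reads, with totals from 8288404 to 23012713 per TIL library and from 9963617 to 25646820 per SR library. They were divided by the library total, multiplied by 1000000 (CPM) and averaged over the regions, which are read-outs of the same DNA and count as 1 replicate. The SR columns carry no replicate number, so each SR library is numbered by the table that sets it beside a TIL library. Nothing in the labels says that the SR replicates came from separate cultures, so p-values measure the spread between these libraries. SR was amplified directly and TIL in a 2-step PCR. The part of this difference in any contrast of TIL with SR cannot be told apart from that of the transfer.

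Before transfer, the Il2ra constructs stood close to the library. Their median abundance was 1142, 994 and 963 CPM in SR 1, 2 and 3, and the library medians were 1207, 1082 and 1092 CPM. Averaged over the SR libraries, single members ran from 95.4 to 5477 CPM, and 23 of 48 lay above the library median of 1136 CPM. Together they held 3.15, 3.50 and 9.53% of the reads of TIL 1, 2 and 3, against 5.96, 5.70 and 5.57% of the reads of SR 1, 2 and 3. The TIL values lay on both sides of the SR values, and the shares did not differ past the test (two-sided exact permutation over samples, 3 against 3, p = 1; the smallest p this design allows is 0.1). In TIL 1 the Il2ra+Tnfrsf18 construct that begins with Il2ra-J supplied 50.4% of the members' reads. In TIL 2 the Il2ra-only construct with Il2ra-C supplied 67.1%, and in TIL 3 an Il2ra+Tnfrsf18+Tnfrsf9 construct with Il2ra-H supplied 55.5%. In each tumour pool a different construct thus held the largest part of the members' reads.

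In the tumours a member was either abundant or nearly absent. Over 48 constructs and 3 TIL replicates there were 144 cases, and 131 of them stayed at or below 1000 scaled reads in both regions. Of these, 128 had at most 25 scaled reads and 52 had 0 in both regions. The other 3 had maxima of 51, 136 and 273. Cases above 1000 in both regions, called detected here, began at 37781 scaled reads, so no member case lay near the threshold. The threshold was chosen with these data known. The members' median in TIL was 0.209, 0.0155 and 0.0440 CPM in replicates 1, 2 and 3. The library's median was likewise near 0, at 0.279, 0.0869 and 0.0440 CPM.

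Detected members numbered 3, 2 and 5 of 48 in TIL 1, 2 and 3, with 8 different constructs among the 10 cases. The shares were 6.25% (Wilson 95% interval 2.15 to 16.8%), 4.17% (1.15 to 14.0%) and 10.4% (4.53 to 22.2%), where the intervals cover counting error only. In the whole library 11.3, 8.85 and 14.1% of constructs were detected in the same replicates. Averaged over replicates the members reached 6.94 ± 3.18% and the non-targeting constructs 6.35 ± 4.18% (SD, n = 3). The members' shares lay within the range of the non-targeting constructs' shares, 2.38 to 10.7%, and these were not tested against each other.

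Detection in all 3 TIL replicates occurred for 1 of 48 members and for 6 of 689 library constructs (0.871%). The member carried Il2ra-C at position 1 and non-targeting spacers behind it. It is printed in full because it is the member that rose.
Position 1, Il2ra-C: agccaCGCTTGCTGATGTTG
Position 2, non-targeting: gcgaggttcgccgtcgtgat
Position 3, non-targeting: cggatgttacctcggtagac
Position 4, non-targeting: tcgtgtacactgatccggcc
It had 8916, 23492 and 12574 CPM in TIL 1, 2 and 3, against 2206, 1868 and 2150 CPM in SR 1, 2 and 3. All TIL values lay above all SR values. Both regions showed it: in region 1 it had 167209, 464122 and 285659 scaled reads in TIL against 57010, 58155 and 44721 in SR, and in region 2 it had 144499, 431490 and 104238 in TIL against 36288, 22967 and 24166 in SR. The construct rose by 2.74 ± 0.39 on the log2(CPM + 1) scale (SE, n = 3; limma, p adjusted over 689 constructs = 0.00172), with 2.01, 3.65 and 2.55 in the replicates. It was 1 of 48 members that rose, and 0.435% of the library did. In abundance it ranked 34th, 8th and 25th of 689 in TIL 1, 2 and 3, against 120th, 169th and 134th in SR 1, 2 and 3.

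Il2ra-C occurs in 8 other constructs, which were detected in 1 of 24 cases. That case was 1 of 9 from constructs that also target Cd28. The other 5 members with Il2ra-C had between 100.4 and 2119 CPM in SR, and the highest value of any in TIL was 0.615 CPM. Their log2 changes ran from -10.75 to -6.54. The Il2ra+Tnfrsf18 construct with Il2ra-C began at a level like that of the construct that rose and stayed undetected in each TIL replicate. Members with Il2ra-A, which overlaps Il2ra-C by 15 bases, were detected in 0 of 18 cases (3 counts of 18, the limit that a count of 0 allows, is 16.7%) and constructs with Il2ra-A and Cd28 in 1 of 15. These members had SR levels between 117 and 670 CPM. The remaining 5 constructs against Il2ra alone stayed between 0 and 0.255 CPM in TIL, against 287 to 1727 CPM in SR. Of the non-targeting spacers of the rising construct, the one at position 2 occurs in 1 other construct, which was detected in 2 of 3 cases. The one at position 3 occurs in 1 other construct, which was detected in 0 of 3 cases.

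Of the members, 14.6% were detected in 1 TIL replicate, 0% in 2 and 2.08% in 3, against 19.2, 6.24 and 0.871% of the library. The 7 detected members other than the construct that rose each appeared in a single TIL replicate. In TIL 1 these were the Il2ra+Tnfrsf18 construct that begins with Il2ra-J and an Il2ra+Tnfrsf9 construct with Il2ra-D. The first had 15876, 5.96 and 0.154 CPM in TIL 1, 2 and 3, against 4961, 5995 and 5475 CPM in SR, where it was the most abundant member. The second had 6714, 0.137 and 0 CPM in TIL, against 1701, 1546 and 1441 CPM in SR. In both, a single tumour pool was high and the others were near 0, so TIL and SR overlapped. In TIL 2 the single such member was the Il2ra+Tnfrsf9 construct with Il2ra-J, with 0.929, 11515 and 0.0660 CPM in TIL, against 2188, 2322 and 2611 CPM in SR.

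In TIL 3 there were 4 such members. The largest, Il2ra+Tnfrsf18+Tnfrsf9 with Il2ra-H, had 0.290, 0.0435 and 52867 CPM in TIL 1, 2 and 3, against 2207, 2375 and 2245 CPM in SR. An Il2ra+Tnfrsf4+Tnfrsf9 construct with Il2ra-F at position 3 had 0.104, 0.0435 and 10566 CPM in TIL, against 1471, 1687 and 1499 CPM in SR. An Il2ra+Tnfrsf4 construct with Il2ra-E had 0.325, 0.196 and 4207 CPM in TIL, against 1357, 1412 and 1427 CPM in SR. The construct against all 4 genes with Tnfrsf9 first and Il2ra-J last had 0.604, 0.161 and 4690 CPM in TIL, against 2112, 1971 and 2178 CPM in SR. For each of these 4 the TIL 3 value exceeded every SR value, while TIL 1 and TIL 2 lay below 1 CPM. The spacers before the Il2ra spacer or behind it in these constructs, which identify them in the read-out, were as follows.
Tnfrsf18 spacer before Il2ra-H: gagaagcactatgggggcat
Tnfrsf9 spacer behind Il2ra-H: gcaggtccttaccttgttcc
Tnfrsf4 spacer before Il2ra-F: cagcttcaggaccccgatcc
Tnfrsf9 spacer before Il2ra-F: gcaaagccgatgtcagcgcc
Tnfrsf4 spacer behind Il2ra-E: gagccgctgtgatcatacca
Tnfrsf9 spacer of the 4-gene construct: ccaagtaccttctccagcat
Tnfrsf4 spacer of the 4-gene construct: ccacagtactcacttggtcc
Tnfrsf18 spacer of the 4-gene construct: gagaagcactatgggggcat
The Tnfrsf18 spacer is the same before Il2ra-H and in the 4-gene construct. Outside the construct with Il2ra-H it occurs in 11 constructs, detected in 3 of 33 cases, and the Tnfrsf9 spacer behind it in 9 others, detected in 0 of 27 cases. The Tnfrsf4 spacer behind Il2ra-E likewise occurs in 9 others, detected in 0 of 27 cases. Before Il2ra-F, the Tnfrsf4 spacer occurs in 8 others, detected in 3 of 24 cases, and the Tnfrsf9 spacer in 11 others, detected in 5 of 33. In the 4-gene construct, the Tnfrsf9 spacer occurs in 10 others, detected in 3 of 30 cases, and the Tnfrsf4 spacer in 9 others, detected in 1 of 27. The Tnfrsf9 spacer before Il2ra-F is also in the Il2ra+Tnfrsf9 construct with Il2ra-J detected in TIL 2. That of the 4-gene construct is also in the Il2ra+Tnfrsf9 construct with Il2ra-D detected in TIL 1. The counts over others for these Tnfrsf9 spacers and for the shared Tnfrsf18 spacer therefore include members named here as detected.

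A further 3 members exceeded 1000 scaled reads in only a single region, all in TIL 3. The Il2ra+Tnfrsf18 construct with Tnfrsf18 first and Il2ra-J second had 60471 scaled reads in region 1 and 0 in region 2. An Il2ra+Tnfrsf18+Tnfrsf9 construct with Il2ra-F at position 3 had 85940 and 0. The Il2ra+Tnfrsf9 construct with Il2ra-F had 5 in region 1 and 119121 in region 2. The regions thus disagreed fully for these constructs, which were not counted as detected. Their CPM, averaged over the regions, still entered the log2 means below. Relative to non-targeting constructs they had 7.46, 9.06 and 9.24 in replicate 3, in the order named. The replicate 3 values of their combinations and pairs, and of the members together, include these cases. Such disagreement occurred for 0, 0 and 3 of 48 members and for 20, 12 and 34 of 689 library constructs in TIL 1, 2 and 3.

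Tested one by one against SR, 37 of the 48 members fell, 1 rose and 10 passed in neither direction (limma on log2(CPM + 1), adjusted p under 0.05 over 689 constructs). In the library 67.8% of constructs fell. The outcome followed the detections member by member. All 37 that fell exceeded 1000 scaled reads in no region of any TIL replicate, and all 10 that passed in neither direction exceeded it in exactly 1 replicate. Those that fell changed by -11.14 to -6.41 on the log2 scale (limma, highest adjusted p = 0.000394). The lowest was the Il2ra+Tnfrsf4 construct with Il2ra-G, with 0.406, 0.196 and 0.198 CPM in TIL, against 2840, 3027 and 2674 CPM in SR. The 10 had changes between -6.91 and -5.78 with SE between 3.03 and 4.74 (limma, adjusted p from 0.107 to 0.316). The median change was -8.53 over the 48 members, -8.50 over the library and -9.00 over the 84 non-targeting constructs.

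Among members never seen above the threshold, the size of the fall repeated the starting level. Over these 37 constructs the mean log2 change correlated with the log2 of SR abundance at Pearson's r = -0.99 and Spearman's rho = -0.98. This is a description across constructs, whose changes contain the SR value, and a construct near 0 in TIL cannot fall by more than it had. Measured against the non-targeting mean of each sample, 12 members were lower and 5 higher (limma, adjusted p under 0.05), where 21% of the library was lower and 4.64% higher. All 12 lower members were undetected and had 1251 to 2847 CPM in SR. Of the 5 higher, 1 was the construct with Il2ra-C that rose, and the other 4 were undetected, with 95.4 to 117 CPM in SR and at most 0.0696 CPM in TIL. Their values of 1.56 to 1.99 above non-targeting constructs are therefore not a gain over SR. These calls moved with the replicates included: 0 were lower and 0 higher without replicate 1, 0 and 1 without replicate 2, and 20 and 5 without replicate 3 (limma). With the lowest 10% of SR abundance left out, 1 was lower and 1 higher. With the replicate number fitted as a block, 0 were lower and 0 higher. Library shares were not read out for these alternatives, so the counts are not set against the library.

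The detected members were also compared by starting abundance. All 8 lay above the library median of SR, between 1399 and 5477 CPM. Of the library constructs detected at least once, 143 of 181 (79.0%) lay above it too. Among the 23 members above that median, 15 were detected in no replicate. By quintile of SR abundance from low to high, the members were detected in 0 of 39, 0 of 27, 0 of 15, 7 of 39 and 3 of 24 cases. In the library the corresponding shares of cases were 2.43, 3.62, 11.4, 15.5 and 24.2%. In the quintiles without a detected member, 0 of 39, 0 of 27 and 0 of 15 allow up to 7.69, 11.1 and 20%. The library's shares in these quintiles lay below those limits.

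The 8 combinations were each set against the non-targeting mean, with the value of a combination being the mean log2 change of its 6 constructs minus that mean. None of the 8 passed limma over 101 combinations (lowest adjusted p = 0.202). In the library 0.99% of combinations were higher and 0% lower, and 1 of the 8 had an unadjusted p under 0.05, against 19 of 101. Il2ra alone had 1.32, 2.04 and 0.71 in replicates 1, 2 and 3, or 1.36 ± 0.53 (SE, n = 3; limma adjusted p = 0.202), and ranked 25th of 101. Without its construct with Il2ra-C, the remaining 5 constructs had -0.55, -0.049 and -1.20, a mean of -0.60. The sign of the value for Il2ra alone therefore rested on 1 construct. With the median over constructs of each sample in place of the mean, 3 of the 8 combinations were lower and 3 higher than non-targeting constructs (limma), where 36.6% of the library's combinations were lower and 10.9% higher. The 3 lower had median SR abundances of 1325, 1376 and 1645 CPM, and the 3 higher of 279, 494 and 538 CPM. In the combinations called, the medians thus ran opposite to the starting level, as the values of undetected members did. Neither the part of the starting level nor that of the targets was tested.

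With a single co-stimulatory partner the values spread in both directions. Il2ra+Tnfrsf9 had 1.04, 1.49 and 0.059 in replicates 1, 2 and 3 (mean 0.86; 95% interval -0.40 to 2.12), with 2 of 18 cases detected. Il2ra+Tnfrsf18 had 0.98, -1.05 and -0.75 (mean -0.27; -1.68 to 1.13), with 1 of 18 cases detected. Il2ra+Tnfrsf4 had -1.49, -1.34 and -0.37 (mean -1.07; -2.29 to 0.16) and 1 of 18 cases detected, and it was the single combination of the 8 below 0 in all replicates. Its 6 constructs summed to 1.43, 0.608 and 4208 CPM in TIL, against 9778, 9219 and 9156 CPM in SR.

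Sets of 3 and 4 genes had means between -0.059 and 0.52. Il2ra+Tnfrsf18+Tnfrsf4 had -0.34, 0.42 and -0.19 and was detected in 0 of 18 cases, which allows up to 16.7%. Its constructs summed to 1.05, 0.400 and 8.56 CPM in TIL, against 5661, 4749 and 4643 CPM in SR. Il2ra+Tnfrsf4+Tnfrsf9 had -0.55, -0.082 and 0.98, and Il2ra+Tnfrsf18+Tnfrsf9 had -0.82, -0.49 and 2.87. The set of all 4 genes had -0.66, -0.13 and 0.61. Replicate 3 was above 0 and replicates 1 and 2 below it in each of these last 3 sets. By the number of targets from 1 to 4, members averaged 1.36 ± 0.67, -0.16 ± 0.29, 0.20 ± 0.92 and -0.059 ± 0.63 relative to non-targeting constructs (SD, n = 3). They were detected in 3 of 18, 4 of 54, 2 of 54 and 1 of 18 cases. All 3 detections with 1 target came from the construct with Il2ra-C.

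Matched pairs asked what the addition of Il2ra did to a set of TNF receptor family targets. Each of 7 sets of Tnfrsf4, Tnfrsf9 and Tnfrsf18 was compared with the same set plus Il2ra, in a limma fit over the 248 such pairs of the library. None of the 7 passed, where 0% of pairs were higher and 0.806% lower. Of all 19 pairs that involve a member, 2 had an unadjusted p under 0.05, against 43 of 248. The pair closest to the threshold among the 7 was Tnfrsf4+Tnfrsf9, where the set with Il2ra had 0.11 and the set without it -1.60 relative to non-targeting constructs. Its difference was 0.79, 0.80 and 3.56 in the replicates (mean 1.72; 95% interval -0.30 to 3.73; limma adjusted p = 0.316). The set with Il2ra was detected in 1 of 18 cases and the set without it in 0 of 18. Their median SR abundances were 494 and 1000 CPM, and the part of the starting level in the difference was not tested. Adding Il2ra to Tnfrsf9 gave 0.83, 0.70 and 0.81 (mean 0.78; -0.24 to 1.79; limma adjusted p = 0.376).

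The other 5 sets changed by amounts within a wide error. Adding Il2ra to Tnfrsf18+Tnfrsf9 gave -5.48, -2.02 and 3.62 (mean -1.29; -6.59 to 4.01), the widest spread of the 7. The set with Il2ra was detected in 1 of 18 cases and the set without it in 4 of 18. Adding Il2ra gave means of -0.99 for Tnfrsf4, -0.58 for Tnfrsf18, -0.44 for Tnfrsf18+Tnfrsf4+Tnfrsf9 and 0.15 for Tnfrsf18+Tnfrsf4. Over all 7 pairs the mean was -1.20, -0.31 and 1.23 in replicates 1, 2 and 3, or -0.095 ± 1.23 (SD, n = 3; two-sided exact sign-flip permutation over replicates, p = 1; the smallest p is 0.25). Sets with Il2ra were detected in 7 of 126 cases and the same sets without it in 13 of 126. The 95% interval of each of the 7 pairs included 0. With medians in place of means, 1 of the 7 was lower and 3 were higher (limma), where 17.7% of the library's pairs were lower and 16.5% higher. In all 4 the direction was opposite to the difference in median SR abundance. For Tnfrsf18+Tnfrsf4, called higher at 2.30, that abundance was 279 CPM with Il2ra and 1603 CPM without it.

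The reverse question was what a TNF receptor family target added to Il2ra. None of the 12 pairs passed (limma, adjusted p from 0.173 to 0.980). The lowest adjusted p was that of Tnfrsf4 added to Il2ra alone, where Il2ra+Tnfrsf4 had -1.07 and Il2ra alone 1.36. The difference was -2.81, -3.38 and -1.07 in the replicates (mean -2.42; 95% interval -4.20 to -0.64; limma unadjusted p = 0.0162, adjusted p = 0.173). It includes the construct with Il2ra-C on the Il2ra side. Median SR abundance was 1325 CPM with Tnfrsf4 and 538 CPM without it, and the part of the starting level was not tested. Averaged over the 4 pairs of each gene, adding Tnfrsf4 gave -0.88 ± 0.47, Tnfrsf9 0.36 ± 0.84 and Tnfrsf18 -0.28 ± 0.57 (SD, n = 3). The exact two-sided sign-flip permutation p was 0.25 for Tnfrsf4, the smallest it can be, and 0.75 for the other genes. With medians, 6 of the 12 pairs were lower and 5 higher (limma), where 17.7% of the library's pairs were lower and 16.5% higher. In all 11 the direction was opposite to the difference in median SR abundance.

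Spacers against Il2ra were also compared over every construct that carries them, with and without Cd28. None of the 10 passed limma over 143 targeting spacers (adjusted p from 0.112 to 0.956), where 0% of spacers were higher and 0.699% lower. One of the 10 had an unadjusted p under 0.05, against 31 of 143. This was Il2ra-C, with 1.84 ± 0.53 over 9 constructs (SE, n = 3; limma adjusted p = 0.112), and it contains the construct that rose. The lowest values were those of Il2ra-G (-0.94 ± 0.43 over 7 constructs) and Il2ra-I (-0.89 ± 0.48 over 10). These were also the spacers detected in no case with or without Cd28, 0 of 21 for Il2ra-G and 0 of 30 for Il2ra-I. In the library 11.4% of cases were detected. Among members alone, 0 of 15 cases for each of these spacers allows up to 20%. The part of the starting level in the spacer values was not tested. Within the 48 members, detections by spacer were 3 of 27 cases for Il2ra-J from 3 constructs and 3 of 18 for Il2ra-C from 1 construct. Il2ra-D, Il2ra-E, Il2ra-F and Il2ra-H had 1 detection each. Il2ra-B was detected in 0 of 3 member cases, which sets no limit below 100%, and in 3 of 15 cases together with a Cd28 spacer.

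The members were last compared with the other co-stimulatory constructs. Relative to non-targeting constructs they had -0.065, 0.11 and 0.49 in replicates 1, 2 and 3, a mean of 0.18 ± 0.28 (SD, n = 3; two-sided exact permutation over samples, p = 0.3; the smallest p is 0.1). The mean was 0.30 without replicate 1, 0.021 without replicate 3 and -0.056 without the construct with Il2ra-C. Constructs against the TNF receptor family alone had 0.94, 0.14 and -0.77. The members differed from them by -1.01, -0.037 and 1.26, which changes sign between replicates (mean 0.073 ± 1.14; exact sign-flip permutation p = 1). From constructs with Cd28 and no Il2ra the members differed by -0.27 ± 0.64 (exact p = 0.75). From constructs against both Cd28 and Il2ra they differed by -0.33 ± 0.30 and were lower in 3 of 3 replicates (exact sign-flip permutation p = 0.25, the smallest possible). The direction turned to 0.063 with region 1 only and to 0.47 with medians. Detected shares were 6.94 ± 3.18% for the members, 10.3 ± 1.37% for the TNF receptor family alone, 9.03 ± 1.20% for Cd28 without Il2ra and 11.1 ± 4.96% for both genes (SD, n = 3). These shares were not tested against each other.

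The authors also counted constructs whose TIL over SR ratio reached 2 in both regions. By the authors' deposited ratios, members reached it in 3, 2 and 4 of 48 constructs in replicates 1, 2 and 3, against 8.71, 7.55 and 6.1% of the library. In the authors' deposited table, Il2ra alone had 1 such construct in each replicate, with log2 enrichments of 1.69, 1.90 and 2.20, and by the deposited ratios it was the construct with Il2ra-C each time. In the authors' deposited table, every combination with 1 of 6 such constructs has the same enrichment within a replicate. These were also Il2ra+Tnfrsf18 and Il2ra+Tnfrsf9 in replicate 1, Il2ra+Tnfrsf9 in replicate 2, and Il2ra+Tnfrsf4, Il2ra+Tnfrsf18+Tnfrsf9 and Il2ra+Tnfrsf4+Tnfrsf9 in replicate 3. The authors' deposited tables list 0 such constructs in any replicate for Il2ra+Tnfrsf18+Tnfrsf4 and for the set of all 4 genes. The detected construct against all 4 genes, with Il2ra-J last, had an authors' deposited mean log2 ratio of 0.83 in replicate 3.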

How the data were processed

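Ratio tables, 1 per replicate, gave scaled reads and log2 ratios. The values deposited for reads are treated as scores, since the authors' numbers look scaled per library and rounded, by a factor not known here; no count test was run. Bowtie2 is named per the submitters' processing notes, with no version. The deposited log2 ratios are the authors' TIL over SR per region with 10 added to both values. The deposited numbers of constructs up 2-fold and their log2 enrichment are the authors' too.

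CPM was computed per library, averaged over regions, and log2(CPM + 1) was tested with limma 3.58.1 in R 4.3.3 without a filter, over all 689 constructs, 101 combinations, 248 matched pairs or 143 targeting spacers, with Benjamini-Hochberg adjustment at 0.05. Values without a fit were compared by exact permutation in Python 3.11.15. Limma was tested on simulated data with normal noise of the spread between SR libraries. These lack the jumps between TIL replicates, so that test does not bear on the calls made here. Each combination is given; single constructs are named if they rose, were detected, or changed most. The limit given with a count of 0 is 3 counts of the total. Gene IDs come from the RefSeq table of GRCm38.p6, used for names only. Members, lists and the detection threshold were chosen with earlier results of these data known. Alternatives were other pseudocounts, filters, regions, replicates left out, medians, the replicate block and the authors' ratios.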

Additional observations from a re-analysis of the deposited data

How the results depend on the processing

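The 37 falls and the 1 rise against SR kept their counts within 1.5 times in all 8 alternatives of that fit, where falls ran from 31 to 44 and the rise stayed at 1. Calls against non-targeting constructs did not. The 12 lower and 5 higher members became 1 and 1 with the lowest 10% of SR abundance left out, 0 and 0 with the replicate block, and 0 to 20 lower and 0 to 5 higher with a replicate left out; with region 2 only, 2 were higher. With medians over constructs, taken within each sample, 3 of the 8 combinations were lower and 3 higher, 1 and 3 of the 7 pairs adding Il2ra were lower and higher, and 6 and 5 of the 12 pairs adding a TNF receptor family gene. In the library, medians called 36.6% of combinations lower and 10.9% higher, and 17.7% of pairs lower and 16.5% higher. The 4 and 11 called pairs all ran opposite to the difference in median SR abundance. Without replicate 3, 1 of those 12 pairs was lower, and 2-fold cases, 9 in all, were 5 to 7 with a replicate left out. The difference from constructs against both Cd28 and Il2ra was 0.063 with region 1 only and 0.47 with medians. The members' mean became -0.056 without the construct with Il2ra-C, an alternative added after seeing the data.

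Values that had passed no test also changed sign; the cause was not tested. Among differences between groups, that from the TNF receptor family alone was -0.034 with region 1 only and -0.52 without replicate 3, and that from Cd28 without Il2ra was 0.019 without replicate 1 and 0.14 with medians. The mean over the 7 pairs adding Il2ra was 0.11 with a pseudocount of 10 CPM and with region 2 only, 0.46 without replicate 1, 0.014 without replicate 2 and 0.23 with medians. Single combinations, pairs and spacers follow. With medians these were Il2ra+Tnfrsf9 (-0.27), Il2ra+Tnfrsf18+Tnfrsf4 (1.497), Il2ra+Tnfrsf18+Tnfrsf9 (-0.10), and the pairs adding Il2ra to Tnfrsf4 (0.49) and to Tnfrsf18+Tnfrsf4+Tnfrsf9 (0.17). With region 2 only they were Il2ra+Tnfrsf18+Tnfrsf4 (0.15), the 4-gene set (0.050) and its pair (0.18), and with region 1 only the pairs for Tnfrsf18+Tnfrsf4 (-0.18) and Tnfrsf9 (-0.070) and spacer Il2ra-B (-0.00066). A pseudocount of 10 CPM gave 0.090 for Il2ra+Tnfrsf18+Tnfrsf4. Leaving out the lowest 10% gave -0.22 for the Tnfrsf18+Tnfrsf4 pair and 0.17 for Il2ra-F. With a replicate left out, the values ran from -0.90 to 0.12 for Il2ra+Tnfrsf18, -0.27 to 0.11 for Il2ra+Tnfrsf18+Tnfrsf4, -0.66 to 1.19 for Il2ra+Tnfrsf18+Tnfrsf9, -0.32 to 0.45 for Il2ra+Tnfrsf4+Tnfrsf9 and -0.39 to 0.24 for the 4-gene set. They ran from -0.15 to 0.59 for the pair Tnfrsf18+Tnfrsf4, -0.85 to 0.13 for the 3-gene pair, -3.75 to 0.80 for Tnfrsf18+Tnfrsf9, -0.19 to 1.24 for Il2ra-D, -0.24 to 1.36 for Il2ra-E, -0.64 to 0.48 for Il2ra-F and -0.28 to 1.21 for Il2ra-H. Il2ra alone had -0.60 without its construct with Il2ra-C.

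The replicate block, with SR numbered by the authors' tables, changed no call on falls, the rise, combinations, pairs or spacers. Deviations of same-numbered TIL and SR libraries from their group means correlated at 0.075, -0.082 and 0.086. Those of different-numbered libraries correlated at -0.13 to 0.12. Most TIL values lie near 0, so these correlations cannot decide whether the numbers pair the samples.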
